A study of Mus musculus with 8 samples.

Results

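Expression of 10 mouse genes that answer the ERK pathway was read from 8 microarrays of sorted basal cell carcinoma cells. The genes are the Sprouty genes Spry1, Spry2 and Spry4, the Spred genes Spred1 and Spred2, the phosphatase genes Dusp4, Dusp5 and Dusp6, and the ETS factor genes Etv4 and Etv5. Each was taken through every probe set annotated to that symbol alone, which gave 21 of the 45141 probe sets on the array and covered 9 of the 10 genes. Dusp5 had 0 such probe sets and was not analysed here. Spred1 and Spred2 had 5 probe sets each, Spry4 had 4, Spry2 had 2 and the other genes had 1 each.

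The cells came from back skin of 4 mice labelled K14-CreER/Ptch1cKO, in which Cre is driven in keratin 14 cells and removes Ptch1, the receptor that holds Smoothened in check. All 8 arrays come from mice of this genotype, and no mouse without it was included. Deletion of Ptch1 in the sorted cells was not checked here. Vismodegib, an inhibitor of Smoothened, had been given to 2 of the mice, at a dose and for a time that the labels do not state, and the other 2 were untreated. From each mouse, live cells with Lrig1 on their surface were split by an Lgr5-GFP reporter, so the groups were Lgr5-positive and Lgr5-negative cells after vismodegib, and Lgr5-positive and Lgr5-negative cells of untreated tumours, with n = 2 mice in each. Neither the age of the mice nor a marker that excludes leukocytes is given in the labels.

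ERK is the last kinase of a chain that starts at growth factor receptors and runs through RAS, RAF and MEK. Active ERK raises transcription of its own brakes. Sprouty and Spred proteins act near the membrane, on the step from receptor to RAF, and the DUSP phosphatases remove phosphate from MAP kinases. Etv4 and Etv5 are transcription factors of the ETS family that are induced downstream of FGF signalling in many developing epithelia.

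Values are log2 signals, and a difference of 1 is 2-fold. Level and difference are given per probe set, and levels of different probe sets were not compared, since each binds with its own efficiency. Differences are given ± their standard error from limma, and a probe set was called where its p-value, adjusted by Benjamini and Hochberg over all 35156 probe sets tested, was under 0.05. To be tested, a probe set had to exceed 4.85 in 2 or more arrays, a limit set at the 25th percentile of the table. This held for 20 of the 21 probe sets, and the exception was Spry4 1445669_PM_at, which exceeded it in 0 arrays.

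Untreated Lgr5-positive cells had the highest mean level of the 4 groups in 21 of the 21 probe sets. In 18 of them, from 7 of the 9 genes, both untreated Lgr5-positive arrays lay above the other 6 arrays. The share of all probe sets with these orders was not counted, so the counts only describe the members. Of all probe sets, 26.6% were lower without overlap after vismodegib in Lgr5-positive cells. In untreated tumours 35.2% were higher without overlap in Lgr5-positive than in Lgr5-negative cells. After vismodegib Spry1, Spry2, Spry4, Etv4 and Etv5 were called lower in Lgr5-positive cells, as were Spred1 and Spred2 by some probe sets. No member probe set was called as different between Lgr5-positive and Lgr5-negative cells of treated mice, where 0.219% of all probe sets tested were called. The lowest mean lay in Lgr5-negative cells after vismodegib in 16 probe sets, in Lgr5-positive cells after vismodegib in 3 and in untreated Lgr5-negative cells in 2.

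**Figure D1:**
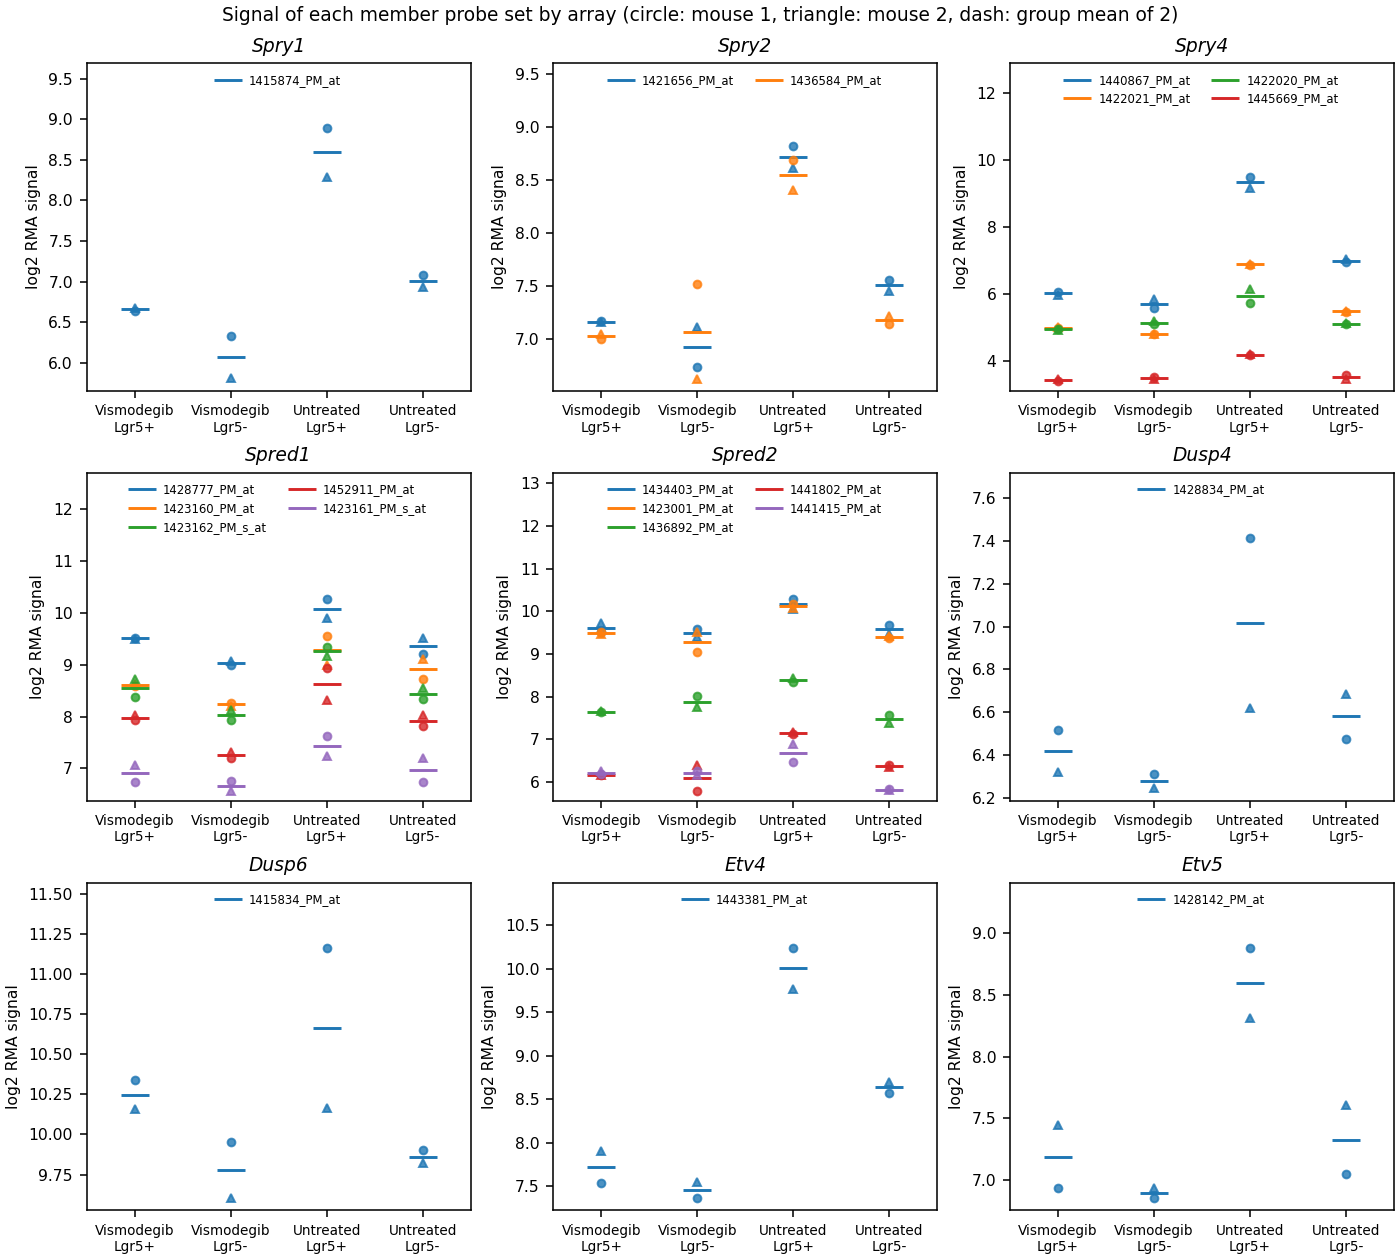
Log2 RMA signal (vertical axis) of the 21 member probe sets, a panel per gene and a colour per probe set, in the 4 groups along the horizontal axis; circles are mouse 1, triangles are mouse 2 and dashes are means of n = 2. The untreated Lgr5-positive mean is the highest in all 21 probe sets, and for Dusp6 its 2 arrays lie at 11.16 and 10.16.

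The drug and population comparisons are not independent of each other. The vismodegib effect in Lgr5-positive cells and the population difference in untreated tumours both use the 2 untreated Lgr5-positive arrays, so their values are set side by side without a correlation.

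Sprouty genes encode inhibitors of receptor tyrosine kinase signalling upstream of ERK, and Spry4 had the largest differences of all members in 4 of the 5 comparisons, all but the population difference after vismodegib. Spry4 1440867_PM_at stood at 6.07 and 5.97 in Lgr5-positive cells after vismodegib, at 5.58 and 5.84 in Lgr5-negative cells after vismodegib, at 9.50 and 9.16 in untreated Lgr5-positive cells, and at 6.94 and 7.05 in untreated Lgr5-negative cells. The arrays of each group lay together, and no group overlapped another. Spry4 by this probe set fell by 3.31 ± 0.16 in Lgr5-positive cells (adjusted p = 0.000151) and by 1.28 ± 0.16 in Lgr5-negative cells (adjusted p = 0.0115). In untreated tumours it was higher by 2.33 ± 0.16 in Lgr5-positive cells than in Lgr5-negative cells (adjusted p = 0.000812). After vismodegib the same population difference was 0.31 (95% interval -0.06 to 0.68, adjusted p = 0.509).

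The other probe sets of Spry4 gave smaller differences. Spry4 1422021_PM_at stood at 4.97 and 5.02 in Lgr5-positive cells after vismodegib, 4.81 and 4.81 in Lgr5-negative cells after vismodegib, 6.88 and 6.91 in untreated Lgr5-positive cells, and 5.48 and 5.48 in untreated Lgr5-negative cells. It fell by 1.90 ± 0.11 in Lgr5-positive cells (adjusted p = 0.000267) and by 0.67 ± 0.11 in Lgr5-negative cells (adjusted p = 0.0291). Its treated Lgr5-negative arrays both lay under 4.85, and all groups were apart. Spry4 1422020_PM_at fell by 0.99 ± 0.15 in Lgr5-positive cells (adjusted p = 0.00819), while its difference in Lgr5-negative cells was 0.03 ± 0.15 (adjusted p = 0.950). Spry4 1445669_PM_at lay between 3.42 and 4.20 in all 8 arrays and was not tested, although its 2 untreated Lgr5-positive arrays, at 4.17 and 4.20, were its highest.

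Spry1 had 1 probe set and separated all 4 groups. It stood at 6.64 and 6.67 in Lgr5-positive cells after vismodegib, 6.34 and 5.81 in Lgr5-negative cells after vismodegib, 8.89 and 8.29 in untreated Lgr5-positive cells, and 7.08 and 6.94 in untreated Lgr5-negative cells. Spry1 fell by 1.93 ± 0.23 in Lgr5-positive cells after vismodegib (adjusted p = 0.00328) and was higher by 1.58 ± 0.23 in untreated Lgr5-positive than Lgr5-negative cells (adjusted p = 0.00685). In Lgr5-negative cells its drug difference of -0.93 ± 0.23 did not pass (adjusted p = 0.0986), although those groups did not overlap.

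Spry2 was read by 2 probe sets, both of which fell in Lgr5-positive cells. Spry2 1421656_PM_at stood at 7.17 and 7.16 in Lgr5-positive cells after vismodegib, 6.74 and 7.11 in Lgr5-negative cells after vismodegib, 8.82 and 8.62 in untreated Lgr5-positive cells, and 7.56 and 7.46 in untreated Lgr5-negative cells. By this probe set Spry2 fell by 1.55 ± 0.16 in Lgr5-positive cells (adjusted p = 0.00151), and by the other, 1436584_PM_at, it fell by 1.52 ± 0.27 (adjusted p = 0.0133). In untreated tumours both were higher in Lgr5-positive cells, by 1.21 ± 0.16 (adjusted p = 0.00414) and 1.37 ± 0.27 (adjusted p = 0.0169). In Lgr5-negative cells the drug differences of -0.58 ± 0.16 and -0.11 ± 0.27 did not pass. The second probe set read 7.52 and 6.62 in the 2 treated Lgr5-negative arrays, a gap between mice of 0.90 that spans its untreated Lgr5-negative values of 7.14 and 7.22.

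The stretches before annotated starts of Spry1, Spry2, Spred2 and Etv5 are shown. Each gene had a probe set called lower after vismodegib in Lgr5-positive cells and higher there in untreated tumours. Spred1, Spry4 and Etv4 met this too and are not shown. The stretches are the 250 bases upstream of each RefSeq start in build GRCm38.p6, read 5′ to 3′ on the gene's strand. Capitals mark any searched motif.
Spry1, chr3:37639697-37639946, plus strand: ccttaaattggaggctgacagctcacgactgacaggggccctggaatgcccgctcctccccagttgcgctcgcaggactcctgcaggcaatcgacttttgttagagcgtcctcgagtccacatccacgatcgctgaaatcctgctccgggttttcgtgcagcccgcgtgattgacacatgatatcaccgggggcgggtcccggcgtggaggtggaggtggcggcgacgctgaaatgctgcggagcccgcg
Spry2, chr14:105896820-105897069, minus strand: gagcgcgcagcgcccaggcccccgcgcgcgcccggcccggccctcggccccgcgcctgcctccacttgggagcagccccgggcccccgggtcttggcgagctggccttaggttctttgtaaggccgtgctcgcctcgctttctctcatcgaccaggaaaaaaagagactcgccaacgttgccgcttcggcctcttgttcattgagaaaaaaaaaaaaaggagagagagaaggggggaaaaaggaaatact
Spred2, chr11:19924192-19924441, plus strand: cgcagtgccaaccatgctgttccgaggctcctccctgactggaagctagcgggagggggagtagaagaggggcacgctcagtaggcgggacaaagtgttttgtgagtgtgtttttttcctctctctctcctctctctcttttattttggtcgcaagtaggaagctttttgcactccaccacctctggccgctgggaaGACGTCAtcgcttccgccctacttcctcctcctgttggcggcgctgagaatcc
Etv5, chr16:22439571-22439820, minus strand: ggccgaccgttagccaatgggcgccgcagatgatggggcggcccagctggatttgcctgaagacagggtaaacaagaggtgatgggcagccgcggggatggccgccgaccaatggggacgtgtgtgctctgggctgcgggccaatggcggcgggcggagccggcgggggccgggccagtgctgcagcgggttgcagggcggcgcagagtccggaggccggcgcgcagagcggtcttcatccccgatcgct
Of the 10 members, 7 were searched, with 8 windows in all since Etv5 had 2 starts. They were Spry1, Spry2, Spred1, Spred2, Dusp6, Etv5 and Dusp5, whose expression was not analysed. Spry4, Dusp4 and Etv4 were not searched, so the motif counts do not cover them. On both strands, the ETS core CCGGAAG, the AP-1 site TGANTCA and the GLI core GGTGGTC were found in 0 of the 8 windows, and the CRE-type motif TGACGTC in 1, that of Spred2, where it lies on the opposite strand as GACGTCA. Over all 32851 windows of the same length, 6.91% held the ETS core, 6.75% the AP-1 site, 2.78% the CRE-type motif and 2.34% the GLI core. These letters describe the windows and no site of binding.

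Spred genes encode proteins that bind RAS pathway components and block activation of RAF. Spred1 1423162_PM_s_at stood at 8.37 and 8.73 in Lgr5-positive cells after vismodegib, 7.94 and 8.13 in Lgr5-negative cells after vismodegib, 9.34 and 9.18 in untreated Lgr5-positive cells, and 8.34 and 8.55 in untreated Lgr5-negative cells. It fell by 0.71 ± 0.16 in Lgr5-positive cells (adjusted p = 0.0368), a call that was lost without any 1 of 6 arrays, at adjusted p-values of 0.0543 to 0.213. The other 4 probe sets of Spred1 gave -0.53 to -0.67 in this comparison and did not pass. In untreated tumours Spred1 was higher in Lgr5-positive cells by 2 of its 5 probe sets, at 0.81 ± 0.16 (1423162_PM_s_at, adjusted p = 0.0190) and 0.72 ± 0.17 (1428777_PM_at, adjusted p = 0.0321). With the mouse as a block the second of these had an adjusted p = 0.0551. In treated mice the 5 population differences of Spred1 were 0.24 to 0.72, all above 0, and none passed.

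In untreated tumours 5 of the 5 probe sets of Spred2 were higher in Lgr5-positive cells, by 0.59 to 0.90. Without untreated Lgr5-negative mouse 1, 4 of these calls were lost (adjusted p-values of 0.0741 to 0.139), and without mouse 2 of that group all 5 were (0.0764 to 0.278). Spred2 1436892_PM_at stood at 7.63 and 7.65 in Lgr5-positive cells after vismodegib, 8.01 and 7.75 in Lgr5-negative cells after vismodegib, 8.33 and 8.43 in untreated Lgr5-positive cells, and 7.57 and 7.39 in untreated Lgr5-negative cells. Its untreated population difference was 0.90 ± 0.14 (adjusted p = 0.00744), and it fell by 0.74 ± 0.14 after vismodegib in Lgr5-positive cells (adjusted p = 0.0169). Another, 1441802_PM_at, fell by 0.98 ± 0.19 in Lgr5-positive cells (adjusted p = 0.0200), and the remaining 3 gave -0.46 to -0.64 without passing. In Lgr5-negative cells the 5 probe sets gave -0.28 to 0.40, on both sides of 0, and none passed. With the mouse as a block, 1434403_PM_at, at 0.59 ± 0.16 in untreated tumours (adjusted p = 0.0486), had an adjusted p = 0.0548.

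The phosphatase genes were not called in any comparison. Dusp6, which encodes a cytoplasmic phosphatase with a preference for ERK, stood at 10.34 and 10.16 in Lgr5-positive cells after vismodegib, 9.95 and 9.61 in Lgr5-negative cells after vismodegib, 11.16 and 10.16 in untreated Lgr5-positive cells, and 9.90 and 9.82 in untreated Lgr5-negative cells. The 2 untreated Lgr5-positive mice differed by 1.00, and the array of mouse 2 lay within the range of the treated Lgr5-positive arrays. The drug difference in Lgr5-positive cells was -0.42 ± 0.30 (adjusted p = 0.470) and the untreated population difference 0.80 ± 0.30 (adjusted p = 0.124). Without the array of untreated Lgr5-positive mouse 2 the values were -0.92 and 1.30, and without that of mouse 1 the drug difference was 0.09. The untreated Lgr5-positive value left without mouse 1, 10.16, stood beside an untreated Lgr5-negative mean of 9.86. In Lgr5-negative cells the drug difference of Dusp6 was -0.08 (95% interval -0.78 to 0.61).

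Dusp4, which encodes a nuclear MAP kinase phosphatase, stood at 6.52 and 6.32 in Lgr5-positive cells after vismodegib, 6.31 and 6.25 in Lgr5-negative cells after vismodegib, 7.42 and 6.62 in untreated Lgr5-positive cells, and 6.48 and 6.69 in untreated Lgr5-negative cells. Mouse 1 again gave the high value of the untreated Lgr5-positive group, and mouse 2 lay among the untreated Lgr5-negative values. The drug difference in Lgr5-positive cells was -0.60 ± 0.24 (adjusted p = 0.189) and the untreated population difference 0.44 ± 0.24 (adjusted p = 0.283). Without the array of mouse 2 these were -0.996 and 0.83. Without that of mouse 1 the untreated Lgr5-positive value left was 6.62. It stood beside means of 6.42 in treated Lgr5-positive and 6.58 in untreated Lgr5-negative cells. Mouse 1 was above mouse 2 among untreated Lgr5-positive arrays in 15 of the 21 member probe sets.

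Both ETS factor genes fell in Lgr5-positive cells after vismodegib. Etv4 stood at 7.54 and 7.91 in Lgr5-positive cells after vismodegib, 7.37 and 7.55 in Lgr5-negative cells after vismodegib, 10.24 and 9.77 in untreated Lgr5-positive cells, and 8.57 and 8.70 in untreated Lgr5-negative cells. The 2 untreated groups lay apart from each other and from the treated groups, which overlapped. Etv4 fell by 2.28 ± 0.20 in Lgr5-positive cells (adjusted p = 0.000945) and by 1.18 ± 0.20 in Lgr5-negative cells (adjusted p = 0.0332). In untreated tumours it was higher by 1.37 ± 0.20 in Lgr5-positive cells (adjusted p = 0.00618), and after vismodegib the population difference was 0.26 (95% interval -0.20 to 0.73, adjusted p = 0.649).

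Etv5, the closest relative of Etv4 among the members, stood at 6.94 and 7.45 in Lgr5-positive cells after vismodegib, 6.86 and 6.94 in Lgr5-negative cells after vismodegib, 8.88 and 8.31 in untreated Lgr5-positive cells, and 7.05 and 7.61 in untreated Lgr5-negative cells. The untreated Lgr5-positive arrays lay above all others. Ordered by mean, the other 3 groups each overlapped the next, although the treated and untreated Lgr5-negative arrays did not overlap. Etv5 fell by 1.41 ± 0.27 in Lgr5-positive cells (adjusted p = 0.0190) and was higher by 1.27 ± 0.27 in untreated Lgr5-positive than Lgr5-negative cells (adjusted p = 0.0229). In Lgr5-negative cells its drug difference of -0.43 ± 0.27 did not pass (adjusted p = 0.471).

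In Lgr5-positive cells, then, vismodegib lowered 11 of the 20 tested member probe sets and raised 0, against a background of 4.27% called lower and 5.15% higher over all probe sets tested. The 11 came from Spry1, Spry2, Spry4, Spred1, Spred2, Etv4 and Etv5. All 20 values lay below 0, with a median of -0.72 where the median of all probe sets was -0.001. The groups did not overlap in 19 of the 20, all lower, where 26.6% of all probe sets were lower without overlap. Of the 11 calls, those of Spry1, Spry2 1421656_PM_at, Spry4 1440867_PM_at, Spry4 1422021_PM_at and Etv4 held whichever array was left out. Without the array of treated Lgr5-positive mouse 1, 4 genes were called (Spry1, Spry2, Spry4 and Etv4), and Etv5 had an adjusted p = 0.133. Etv5 also failed without untreated Lgr5-positive mouse 1 (adjusted p = 0.0684).

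**Figure D2:**
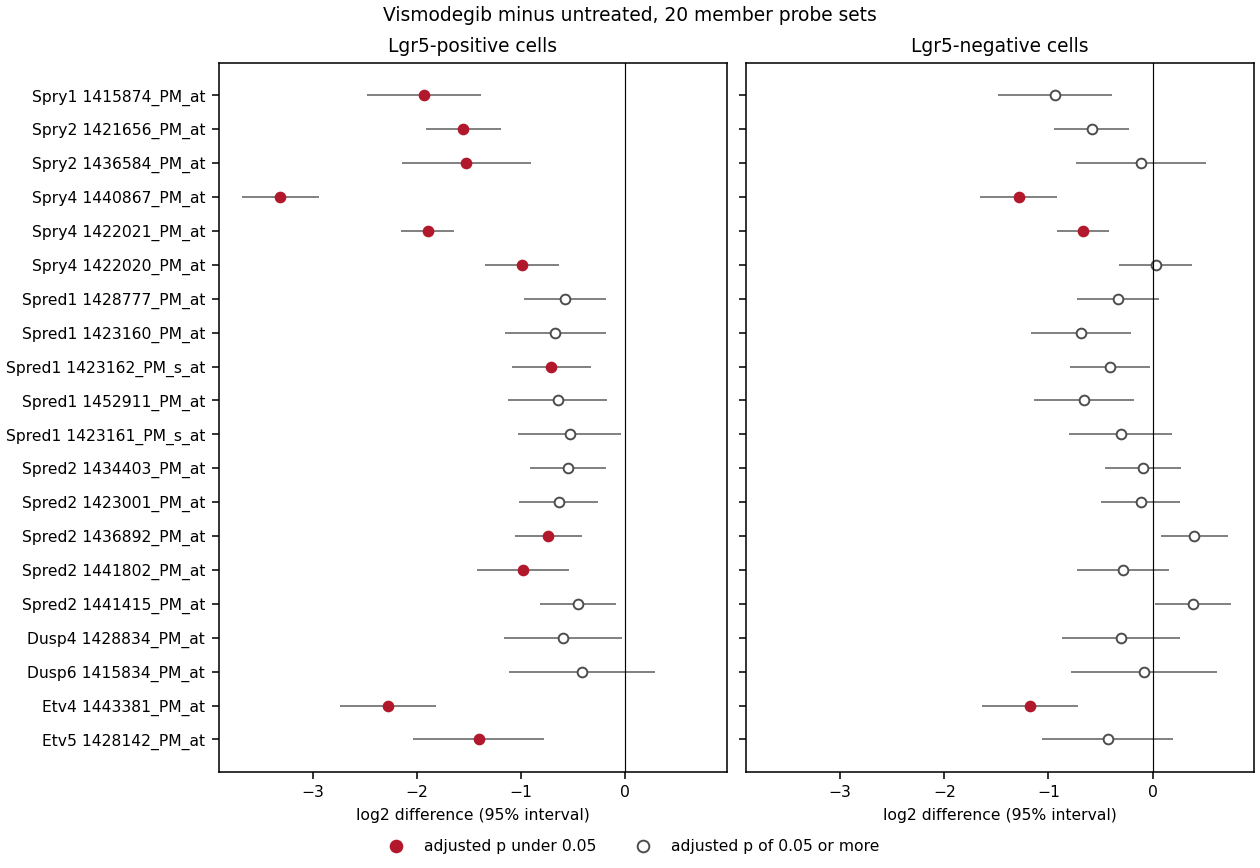
Vismodegib minus untreated (log2, horizontal axis) for the 20 tested member probe sets (vertical axis) in Lgr5-positive cells (left) and Lgr5-negative cells (right); points are limma estimates, lines 95% intervals, and filled points have an adjusted p under 0.05. The left panel holds 11 filled points, all below 0, and the right panel holds 3.

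In Lgr5-negative cells the drug lowered 3 of the 20 probe sets and raised 0, against a background of 1.13% called lower and 0.976% higher. They belong to Spry4, by 2 of its probe sets, and Etv4. Of the 20 values 17 lay below 0, and the median was -0.32 against 0.01 over all probe sets. The groups did not overlap in 13 of the 20, against 49.4% of all. These calls were kept only with both untreated Lgr5-negative arrays. The difference of Spry4 1440867_PM_at itself was -1.34 without mouse 1 and -1.23 without mouse 2 of that group. Without mouse 1 or mouse 2 of that group 0 of the 20 passed, and Spry4 1440867_PM_at had an adjusted p = 0.0745 and 0.132 in those fits. Etv4 and Spry4 1422021_PM_at also failed when any array of a treated group was left out.

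In untreated tumours 15 of the 20 probe sets were higher in Lgr5-positive than in Lgr5-negative cells and 0 lower, against a background of 5.63% called higher and 7.52% lower. The 15 came from the same 7 genes named for the drug effect in Lgr5-positive cells, and those 2 comparisons share the untreated Lgr5-positive arrays. All 20 values lay above 0, with a median of 0.82 against 0.05 over all probe sets, and the groups did not overlap in 18 of the 20, all higher, where 35.2% of all probe sets were higher without overlap. Spry2 1421656_PM_at, Spry4 1440867_PM_at and Spry4 1422021_PM_at were called whichever array was left out. Without untreated Lgr5-negative mouse 2, Spry2 and Spry4 alone were called, and Spry1 had an adjusted p = 0.0678 and Etv4 0.0510. Without untreated Lgr5-positive mouse 2, all 9 genes were called.

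After vismodegib the population difference was called for 0 of the 20 probe sets by limma, where 0.219% of all probe sets were called in either direction. At an unadjusted p under 0.05 the count was 4, all higher in Lgr5-positive cells, where 11.5% of all probe sets reached it, with 6.56% of all being higher. The 20 values ran from -0.24 to 0.72 with a median of 0.24, and 17 lay above 0. The groups did not overlap in 12 of the 20, against 42.8% of all probe sets. For Spry1 the difference was 0.58, with a 95% interval of 0.04 to 1.13 and an adjusted p = 0.413.

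**Figure D3:**
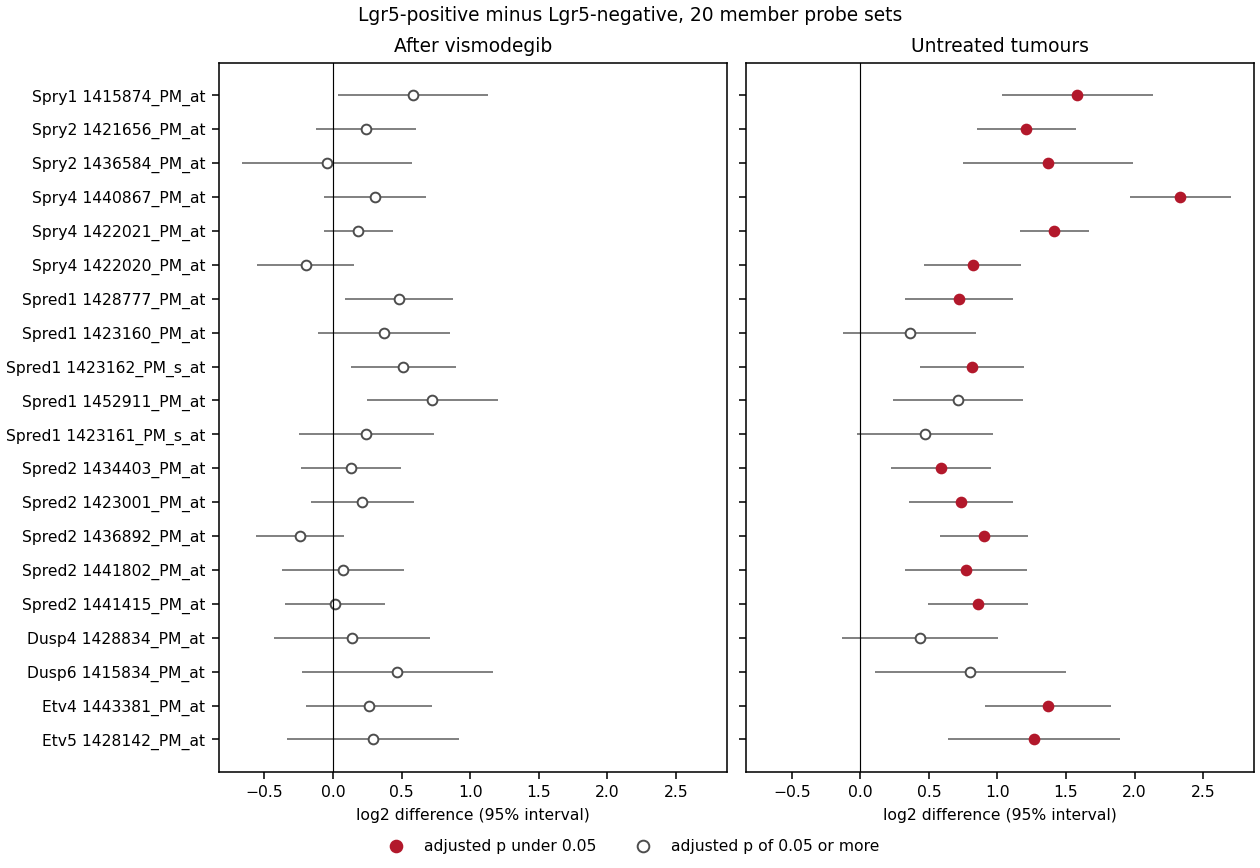
Lgr5-positive minus Lgr5-negative (log2, horizontal axis) for the 20 tested member probe sets (vertical axis) after vismodegib (left) and in untreated tumours (right); points are limma estimates, lines 95% intervals, and filled points have an adjusted p under 0.05. There are 0 filled points after vismodegib and 15 in untreated tumours.

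Whether vismodegib acted to a different extent in the 2 populations was tested as the difference between its effects. By 2 of its 3 tested probe sets Spry4 lost more in Lgr5-positive than in Lgr5-negative cells. The differences were -2.03 ± 0.22 for 1440867_PM_at (adjusted p = 0.0210) and -1.23 ± 0.15 for 1422021_PM_at (adjusted p = 0.0264). These were 2 calls of 20, against a background of 0.233% called in that direction and 0.481% in the other, where 0 members were called. With the mouse as a block the second had an adjusted p = 0.0503. Neither call passed without either untreated Lgr5-negative array or either treated Lgr5-positive array, and 1440867_PM_at had adjusted p-values of 0.0744 to 0.120 in those 4 fits. The same difference was -1.02 ± 0.21 for Spry4 1422020_PM_at, its remaining tested probe set, and did not pass (adjusted p = 0.0887). It was -1.14 ± 0.19 for Spred2 1436892_PM_at (adjusted p = 0.0560) and -0.97 ± 0.22 for Spry2 1421656_PM_at (adjusted p = 0.102). For Etv4 it was -1.10 ± 0.28 (adjusted p = 0.127) and for Spry1 -0.9995 ± 0.33 (adjusted p = 0.216), and none of these passed. For Spred1 the 5 values ran from -0.30 to 0.01.

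**Figure D4:**
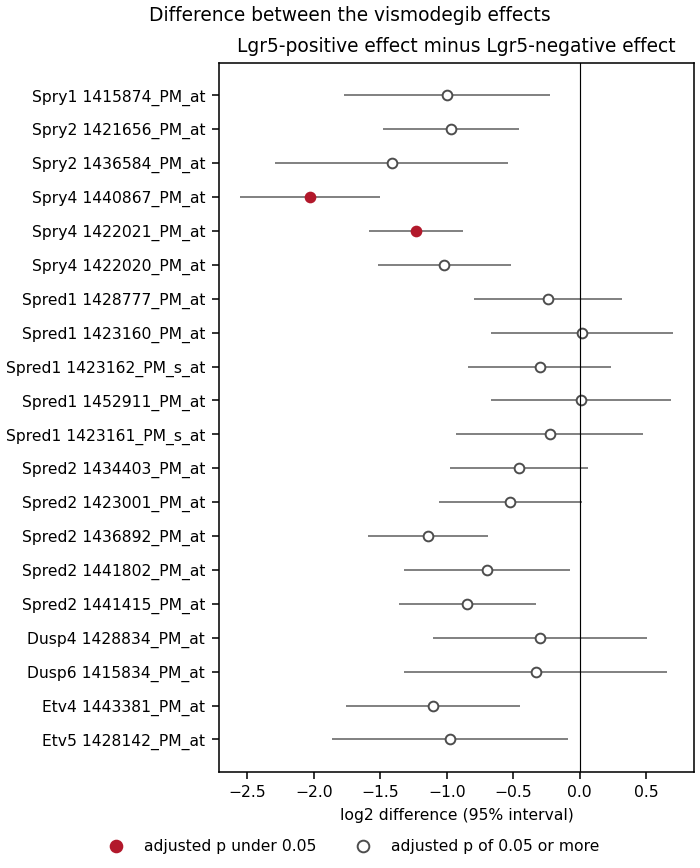
Vismodegib effect in Lgr5-positive cells minus that in Lgr5-negative cells (log2, horizontal axis) for the 20 tested member probe sets (vertical axis); points are limma estimates, lines 95% intervals, and filled points have an adjusted p under 0.05. The 2 filled points are both Spry4 probe sets, at -2.03 and -1.23.

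Most genes of a list of macrophage and Langerhans cell markers moved with these comparisons. Of 12 such genes, 11 rose and 0 fell in Lgr5-positive cells after vismodegib, where 5.71% of all genes were called higher and 4.18% lower. The exception was Cd207, a marker of Langerhans cells. It read 5.70 and 6.05 in treated and 6.09 and 5.80 in untreated Lgr5-positive arrays. The mean level of the list ran from 8.65 to 9.08 in treated and from 5.36 to 5.93 in untreated Lgr5-positive arrays. It ran from 8.37 to 8.51 in treated and from 7.20 to 7.58 in untreated Lgr5-negative arrays. In untreated tumours 7 of the 12 were lower and 0 higher in Lgr5-positive than in Lgr5-negative cells, against 9.26% and 5.29% of all genes. At most 4 of the 12 lay under 4.85 in an untreated Lgr5-positive array, and 0 did in any treated array. The mean of 7 keratinocyte markers was 11.98 to 12.02 in treated and 11.83 in both untreated Lgr5-positive arrays, and 11.88 to 11.97 in treated and 11.57 to 11.58 in untreated Lgr5-negative arrays. The part of the myeloid cells in the results for the members was not tested, and in sorted bulk cells fewer cells of a type and less RNA per cell cannot be told apart. Melanocyte markers, 6 in number, had means of 6.21 to 6.30 in treated and 5.81 to 6.44 in untreated Lgr5-positive arrays, and 5.92 to 5.97 in treated and 5.85 to 6.40 in untreated Lgr5-negative arrays, and T cell, fibroblast and endothelial lists had means of 5.24 to 6.36 over all arrays.

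The sorting gene and the Hedgehog targets checked the labels. Lgr5 lay between 9.44 and 10.03 in treated and between 10.98 and 11.00 in untreated Lgr5-positive arrays. It lay between 4.83 and 5.46 in treated and between 8.40 and 8.52 in untreated Lgr5-negative arrays. Lgr5 itself was thus called lower after vismodegib, with differences of -3.31 in Lgr5-negative and -1.25 in Lgr5-positive cells. The Lgr5-negative groups of treated and untreated mice did not hold the same level of it. Gli1, a target and effector of Hedgehog signalling, lay between 6.37 and 6.56 in the 4 treated arrays. In untreated arrays it lay between 9.73 and 10.13 in Lgr5-positive and between 8.75 and 9.05 in Lgr5-negative cells. Ptch1 differed by -3.13 ± 0.22 after vismodegib in Lgr5-positive cells (adjusted p = 0.000449) and by -2.84 ± 0.22 in Lgr5-negative cells (adjusted p = 0.00237). Which exons were deleted is not stated, so its probe sets check nothing about the deletion. Lrig1, the other sorting gene, lay between 11.45 and 11.60 in untreated Lgr5-positive and between 10.63 and 10.84 in untreated Lgr5-negative arrays. In untreated tumours Gli1, Ptch1 and Lrig1 were higher in Lgr5-positive cells, by 1.03, 1.07 and 0.79. The part of these differences in the results for the members was not tested.

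The wider pathway was described by 3 lists. In the signal chain from adaptors to ERK, 12 of 20 listed genes were tested, and in Lgr5-positive cells after vismodegib 2 rose and 1 fell, with a median of 0.08 against -0.01 over all genes. Over the 14402 genes read by their brightest probe set, 5.71% were called higher and 4.18% lower in this comparison. The scaffold Ksr1 rose by 1.49 ± 0.24 (adjusted p = 0.00975) and the MEK gene Map2k1 by 0.68 ± 0.13, while the docking protein Gab1 fell by 0.87 ± 0.20. In untreated tumours 3 of the 12 were higher and 3 lower in Lgr5-positive cells, where 5.29% of all genes were called higher and 9.26% lower. Among them were the RAS inhibitor Nf1 (1.02 ± 0.18), the kinase Araf (0.82 ± 0.17), Gab1 (0.82 ± 0.20) and Ksr1 (-0.95 ± 0.24).

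A list of other feedback and target genes of ERK had 25 of 28 tested. In Lgr5-positive cells after vismodegib 3 rose and 1 fell, with a median of -0.08, where 5.71% of all genes were called higher and 4.18% lower. The risers were the EGFR inhibitor Errfi1 (0.86 ± 0.13), the phosphatase Dusp7 (0.85 ± 0.15) and the ephrin receptor Epha4 (0.96 ± 0.15), and the early response gene Ier3 fell (-0.75 ± 0.17). In untreated tumours 2 of the 25 were higher and 1 lower in Lgr5-positive cells, counts near the 5.29% and 9.26% of all genes. Those higher were Il17rd, which encodes the FGF feedback inhibitor Sef (1.04 ± 0.17), and cyclin D1 (Ccnd1, 0.70 ± 0.18), and Epha4 was lower (-0.85 ± 0.15). Errfi1 and Dusp7 are themselves known brakes of this pathway, and they moved opposite to the Sprouty genes in the drug comparison.

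Of 31 growth factor receptors and ligands, 26 were tested. In Lgr5-positive cells after vismodegib 2 rose and 4 fell, with a median of -0.11, where 5.71% of all genes were called higher and 4.18% lower. Those with the largest changes were the neurotrophin receptor Ntrk2 (1.40 ± 0.15), the KIT ligand gene Kitl (-1.27 ± 0.18), the HGF receptor Met (1.16 ± 0.25) and the PDGF ligand gene Pdgfc (-1.11 ± 0.25). In untreated tumours 8 were higher and 4 lower in Lgr5-positive cells, against 5.29% and 9.26% of all genes, among them the ErbB ligand gene Nrg1 (-1.29 ± 0.14) and Pdgfc (1.27 ± 0.25). In Lgr5-negative cells after vismodegib Ntrk2 rose by 2.14 ± 0.15, and 1 gene was called lower, where 0.993% of all genes were called higher and 1.34% lower.

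These counts include genes that were tested only because of the group in which they were high. The gene of the EGFR ligand epiregulin, Ereg, read 3.89 and 3.81 in Lgr5-positive cells after vismodegib, 3.90 and 3.80 in Lgr5-negative cells after vismodegib, 3.94 and 3.92 in untreated Lgr5-positive cells, and 5.84 and 5.96 in untreated Lgr5-negative cells. It exceeded 4.85 in the last group alone, so its calls, which were lower in Lgr5-negative cells after vismodegib, lower in untreated Lgr5-positive cells and different between the drug effects, carry no size here. Fgf2, a gene of an FGF ligand, exceeded 4.85 in untreated Lgr5-positive cells alone, at 5.37 and 5.33, and is likewise given without a difference, although it counts among the genes lower after vismodegib in Lgr5-positive cells and higher in untreated Lgr5-positive cells.

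For the difference between the drug effects, Ereg was the single call in the 3 lists, where 0.646% of all genes were called higher and 0.215% lower. The other 2 lists had 0 such calls by limma and 3 of 12 and 4 of 25 genes at an unadjusted p under 0.05, which 16.9% of all genes reached. In Lgr5-negative cells after vismodegib the same 2 lists had 0 calls, with 2 of 12 and 6 of 25 genes at an unadjusted p under 0.05, against 18% of all genes. After vismodegib the 3 lists had 0 called population differences by limma, where 0.271% of all genes were called. At an unadjusted p under 0.05 there were 2 of 12, 5 of 25 and 9 of 26 genes, against 11.6% of all genes. Apart from the calls of Ereg and Fgf2, those of Kitl and Ntrk2 in Lgr5-positive cells and Ntrk2 in Lgr5-negative cells after vismodegib, and of Nrg1 in untreated tumours, were made whichever array was left out.

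**Figure D5:**
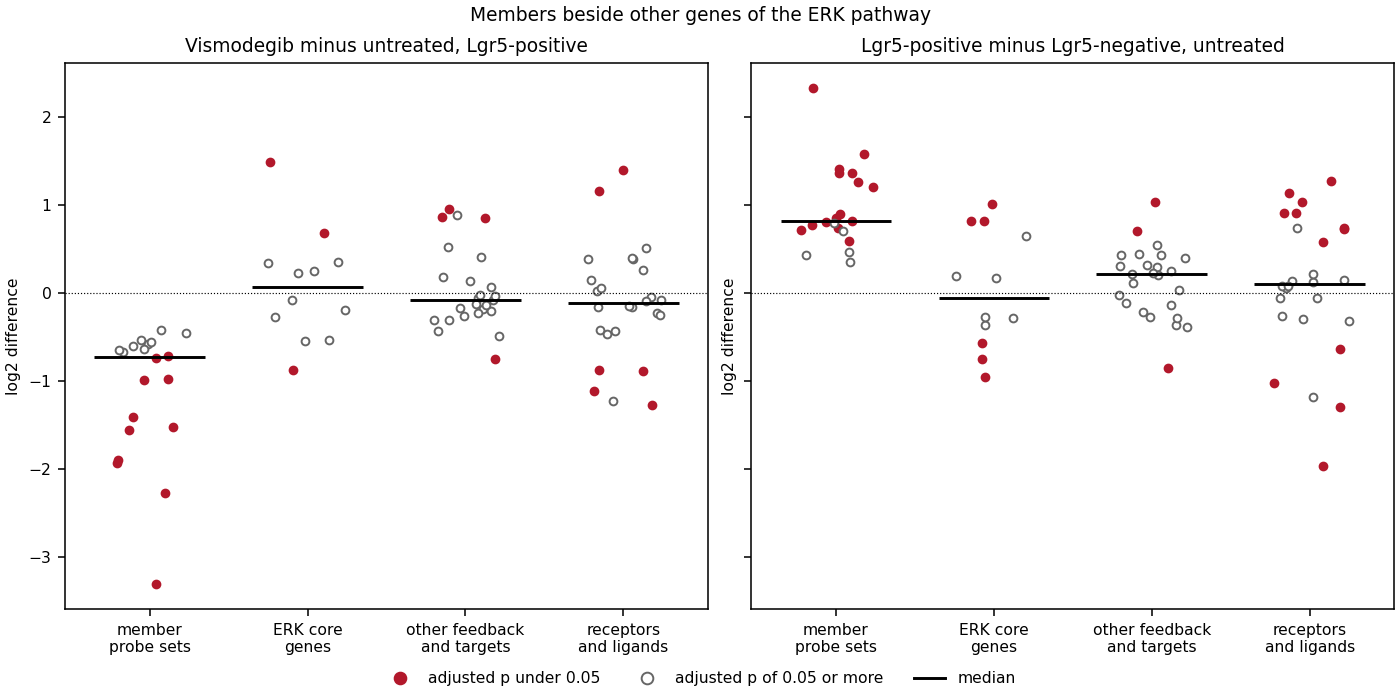
Log2 differences (vertical axis) of the 20 member probe sets and of the tested genes of 3 pathway lists (horizontal axis), for vismodegib in Lgr5-positive cells (left) and for the populations of untreated tumours (right); each point is a probe set or gene, filled where the adjusted p is under 0.05, and bars are medians. The member medians lie at -0.72 and 0.82, and the list medians between -0.11 and 0.22.

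The genes with the most similar profiles were sought among the 14402 genes, by the root mean square difference over the 8 arrays between profiles each centred on its own mean. Nearest to Spry4 were the claudin gene Cldn10 (0.19), the cytokine receptor gene Cntfr (0.26), the formin gene Fmnl2 (0.28), the proteoglycan gene Bgn (0.30) and Coch (0.32), where the profile of Spry4 itself had a root mean square of 1.42. Nearest to Etv4, at a root mean square of 1.01, were Pla2g3 (0.14), Serpina9 (0.19), Chrna4 (0.23), Cpxm1 (0.24) and Abo (0.26). For Etv5, at 0.69, they were Pik3cg (0.16), Ghr (0.17), Pwwp3b (0.22), Lmo4 (0.22) and Arhgap31 (0.23). For Dusp6, at 0.44, they were Pdgfrl (0.16), Rapgef2 (0.16), Col9a3 (0.18), Il17rd (0.19) and Tcaf1 (0.19). None of the other members was among the 5 nearest of these 4.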

How the data were processed

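Gene expression was measured on Affymetrix mouse perfect-match arrays, with an array for each population of each mouse, per the labels' protocols. The deposited log2 values came from RMA, per the submitters' processing notes, which name no version. RMA corrects background, normalises quantiles between arrays and summarises probe sets, so small changes of dim probe sets are compressed. The number of arrays limits the precision. All 8 columns were used. Array medians lay between 6.13 and 6.20, and 0 pairs of arrays held identical values. By the platform annotation, 28898 of the 45141 probe sets carried 1 symbol, 551 several and 15588 none, and 104 were controls. The 2 probe sets shared by Etv5 and Scpep1 were left out of the members.

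The 35156 probe sets above 4.85 in at least 2 arrays entered a two-sided limma 3.58.1 fit (R 4.3.3, eBayes) of 4 group means, with 4 degrees of freedom left and 3.49 from the prior, with Benjamini-Hochberg adjustment over all of them. Probe sets were the unit because the members' probe sets differ. The rule for names took all members, Lgr5, Lrig1, Gli1 and Ptch1, up to 4 called genes per pathway list and comparison by size of change, and the 5 nearest profiles of Spry4, Etv4, Etv5 and Dusp6. Lists used the brightest probe set of each gene. The members, lists and tests were chosen with earlier results of these data known. The labels name separate mice, so p-values rest on the spread between mice within groups. The main fit did not pair the populations of a mouse. For the population comparisons and the difference between the drug effects, its p-values do not measure the spread of within-mouse differences. The number in a label marks the mouse that gave both populations. Deviations from the group means correlated between the populations of a mouse at 0.18 in treated and 0.14 in untreated mice, across probe sets, and the mouse was tried as a block. Other alternatives were the filter, the unit, cyclic loess, an intensity trend, array weights, fewer arrays and leaving out each array. The procedure was tested on simulated data. Promoter sequences are RefSeq's, build GRCm38.p6.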

Additional observations from a re-analysis of the deposited data

Results flagged for a closer look

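The difference between the vismodegib effects passed its test for 2 member probe sets, both of Spry4. It was -2.03 for 1440867_PM_at and -1.23 for 1422021_PM_at on the log2 scale, with a larger decrease in Lgr5-positive cells. The remaining tested probe set of Spry4, 1422020_PM_at, gave -1.02 and did not pass (adjusted p = 0.0887). For the 2 that passed, the p-values follow. The adjusted p-values were 0.0210 and 0.0264, and those without a single array ran from 0.0248 to 0.120 and from 0.0466 to 0.148.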

How the results depend on the processing

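The number of member genes called was 7 for vismodegib in Lgr5-positive cells, and 4 to 8 when each array was left out in turn. It was 2 in Lgr5-negative cells (0 to 2), 0 between treated populations (0 in every fit), 7 between untreated populations (2 to 9) and 1 for the difference between the drug effects (0 to 2). In those fits the lone array of a group is assumed to vary like the others. A fit of only the arrays compared called 0 genes for vismodegib in Lgr5-negative cells. The mean of a gene's probe sets called 2 genes for the difference between the drug effects. With the mouse as a fixed replicate block, Spred1 1428777_PM_at and Spred2 1434403_PM_at had adjusted p-values of 0.0551 and 0.0548 between untreated populations. Spry4 1422021_PM_at had 0.0503 for the difference between the drug effects. These were the 3 calls lost of the 17 member calls that this block could test. It could not test the drug effect within a population, since no mouse gave both treated and untreated cells. With the mouse as a random block 2 genes were called for the difference between the drug effects. A block of mouse number, which pairs different mice across treatments, called 1 gene for vismodegib in Lgr5-negative cells. Over all probe sets, calls ran from 1064 to 4132 (3314 as reported) and from 70 to 830 (741) for the drug effect in Lgr5-positive and then Lgr5-negative cells, from 0 to 526 (77) and from 877 to 5900 (4620) between treated and untreated populations, and from 0 to 394 (251) for the difference. Of 1725 alternative values of members, 1576 kept direction and call, 98 lost the call, 22 gained it and 29 changed sign, 0 of these with a call on either side. The causes were not tested. With cyclic loess the sign changed for Spry4 1422020_PM_at (-0.0098, Lgr5-negative drug effect), Spred2 1441415_PM_at (-0.015, treated populations), Spred1 1423160_PM_at (-0.085, difference) and Spred1 1452911_PM_at (-0.046, difference), and with the mean of probe sets for Spred2 (0.060, Lgr5-negative drug effect). Leaving out single arrays gave ranges that span 0. For vismodegib in Lgr5-positive cells they were -0.92 to 0.086 (Dusp6 1415834_PM_at). For vismodegib in Lgr5-negative cells they were -0.56 to 0.34 (Spry2 1436584_PM_at), -0.013 to 0.072 (Spry4 1422020_PM_at), -0.20 to 0.012 (Spred2 1434403_PM_at), -0.34 to 0.11 (Spred2 1423001_PM_at), -0.58 to 0.018 (Spred2 1441802_PM_at), -0.26 to 0.092 (Dusp6 1415834_PM_at). For the populations after vismodegib they were -0.49 to 0.40 (Spry2 1436584_PM_at), -0.014 to 0.44 (Spred2 1423001_PM_at), -0.23 to 0.37 (Spred2 1441802_PM_at), -0.030 to 0.054 (Spred2 1441415_PM_at). For the difference between the drug effects they were -0.27 to 0.30 (Spred1 1423160_PM_at), -0.30 to 0.32 (Spred1 1452911_PM_at), -0.45 to 0.00048 (Spred1 1423161_PM_s_at), -0.69 to 0.10 (Dusp4 1428834_PM_at), -0.83 to 0.17 (Dusp6 1415834_PM_at).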

Other observations

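Etv5 was also read by 2 probe sets that the annotation assigns to Etv5 and Scpep1 together. 1420998_PM_at stood at 7.37 and 7.30 in Lgr5-positive cells after vismodegib, 6.59 and 6.84 in Lgr5-negative cells after vismodegib, 8.71 and 9.29 in untreated Lgr5-positive cells, and 7.21 and 7.43 in untreated Lgr5-negative cells. It fell by 1.67 ± 0.21 in Lgr5-positive cells (adjusted p = 0.00345), and the second, 1450082_PM_s_at, fell by 1.30 ± 0.24 (adjusted p = 0.0157). In untreated tumours they were higher by 1.68 ± 0.21 and 1.36 ± 0.24 in Lgr5-positive cells. Mouse 2 gave the higher of the untreated Lgr5-positive values here, whereas mouse 1 did for 1428142_PM_at, the Etv5 probe set of a single symbol, at 8.88 and 8.31 for mouse 1 and mouse 2.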
